A study of Mus musculus with 6 samples.

Results

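Transcripts of 9 genes of bone morphogenetic protein (BMP) signaling were followed in bone marrow mesenchymal stem cells (MSCs) with and without a Cre-driven deletion of Pcif1. The genes were 4 ligands (Bmp2, Bmp4, Bmp5 and Bmp6), 2 receptors (Bmpr1a and Bmpr2), the secreted antagonist Grem1, the membrane inhibitor Bambi and the target gene Id1. The genes were taken by symbol from a count table of 20071 Ensembl genes, each matched 1 Ensembl gene, and all 9 passed the filter on low counts. The MSCs came from femurs of mice aged 6 weeks and were sequenced as poly(A) RNA after a week in osteogenic medium with ascorbic acid, β-glycerophosphate and dexamethasone, in 3 libraries per genotype. Pcif1fl/fl mice (the libraries labelled WT) carried loxP sites around exons 5, 6 and 7 of Pcif1 and no Cre. Prrx1-Cre;Pcif1fl/fl littermates (labelled CKO) carried the same floxed alleles and Cre driven by the Prrx1 promoter of limb mesenchyme, which limits the deletion to cells of that lineage. Below, WT and CKO stand for these 2 genotypes, as in the labels. The labels do not say whether the 3 libraries of a genotype were separate mice or cultures. The p-values therefore measure the spread between these libraries, which may be technical.

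BMPs are secreted dimers of the TGF-β superfamily and were named for their ability to induce bone. They bind complexes of type I and type II serine/threonine kinase receptors, which phosphorylate SMAD1, SMAD5 and SMAD9, and these enter the nucleus with SMAD4 and switch on targets such as the Id genes. Secreted antagonists (gremlins, noggin, chordins and follistatins) hold ligands away from the receptors, and BAMBI, SMAD6, SMAD7 and SMURF proteins act against the signal at the membrane or inside the cell.

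The libraries held 20258209 to 28227696 counts. WT replicate 3 stood apart from the other libraries, with 3.63% of its counts on mitochondrial genes against 1.40% to 1.57% elsewhere, so values without it are given where a call or a direction changes. The targeted gene did not separate the genotypes at the level of the whole transcript. Pcif1 was at 42.8, 41.7 and 39.3 counts per 1000000 TMM-scaled counts (CPM) in WT and 39.2, 37.8 and 39.7 in CKO MSCs, with a log2 fold change of -0.09 (SE 0.09, adjusted p = 0.645), and the deleted exons could not be read from gene counts. Direction below is therefore that of the libraries as labelled. Macrophage transcripts were abundant in every library, the 12 markers summing to 31633 to 35217 CPM in WT and 32752 to 35906 CPM in CKO MSCs, and Bglap, which encodes the late osteoblast protein osteocalcin, was near 0. Xist ran from 232 to 443 CPM in WT and from 0.722 to 1.79 CPM in CKO libraries, and Y-linked Ddx3y, Eif2s3y, Kdm5d and Uty were lower in every WT than in every CKO library, so the sex makeup of the libraries and the genotype cannot be told apart.

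PCIF1 methylates an adenosine next to the mRNA cap, so the annotated first base of a BMP transcript bears on whether it could carry the mark. For this reason RefSeq start sites are shown for the 6 of the 9 genes that matched in the RefSeq set used here. The sequences are from GRCm38.p6, 5′ to 3′ on the strand of the gene, with the start base in capitals, 20 bases before it and 9 after. The windows lie at chr14:46390660-46390689 on the minus strand (Bmp4), chr9:75775345-75775374 on the plus strand (Bmp5), chr13:38345696-38345725 on the plus strand (Bmp6), chr14:34502537-34502566 on the minus strand (Bmpr1a), chr1:59764259-59764288 on the plus strand (Bmpr2) and chr2:113758639-113758668 on the minus strand (Grem1).
Bmp4: cagaaggggaggcgattaagGgaggaggga
Bmp5: ccagcagggctgtgcttacaTttctcctta
Bmp6: agacctgcgggagagtggagGatcctggcc
Bmpr1a: cgagctcccgcgcgtcggccCcgcgcgaga
Bmpr2: cccccccccccccccccggcActctggata
Grem1: gagaccgggagatgcccgacActaggtgcg

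By these entries the receptor Bmpr2 and the antagonist Grem1 start with an adenosine, and the ligands Bmp4, Bmp5 and Bmp6 do not. An adenosine stood at the start in 34.4% of 32851 RefSeq promoters. The other annotation at hand, GENCODE M21, placed an adenosine at the start of 30.9% of 58797 coding transcripts, among them the single one of Bmp5, the single one of Bmpr2 and 1 of 4 of Bmpr1a, and at none of those of Bmp2, Bmp4, Bmp6, Grem1, Bambi and Id1. The annotations thus differ for Bmp5 and Grem1, where their start sites lie 1 and 2 bases apart. The starts of Bmp4 coincide, whereas those of Bmp6, Bmpr1a and Bmpr2 lie 609, 795 and 879 bases from the outermost GENCODE start of the gene. Whether the adenosine given for Bmpr2 by both is at the same site was not compared. The start sites these MSCs used were not measured by gene counts.

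Of the 9 genes, 3 were down-regulated in CKO MSCs and none was up-regulated (quasi-likelihood test of edgeR, Benjamini-Hochberg adjusted p under 0.05 over all 13733 genes tested). The 3 were the ligands Bmp4, Bmp5 and Bmp6. Among all genes tested, 4.51% were down-regulated and 2.88% up-regulated by the same rule. Bmp4 and Bmp5 also had a log2 fold change of -1 or less, and 2.50% of all genes tested met both criteria. At an unadjusted p under 0.05, 4 of the 9 were lower and 0 were higher, against 11.8% and 9.56% of all genes tested, and neither DESeq2 nor limma-voom called any of them higher. The median log2 fold change over the 9 was -0.31, against 0.0017 over all genes tested. Because the 9 genes were chosen with earlier results of these data known, setting them beside all genes is a description and no test.

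**Figure D1:**
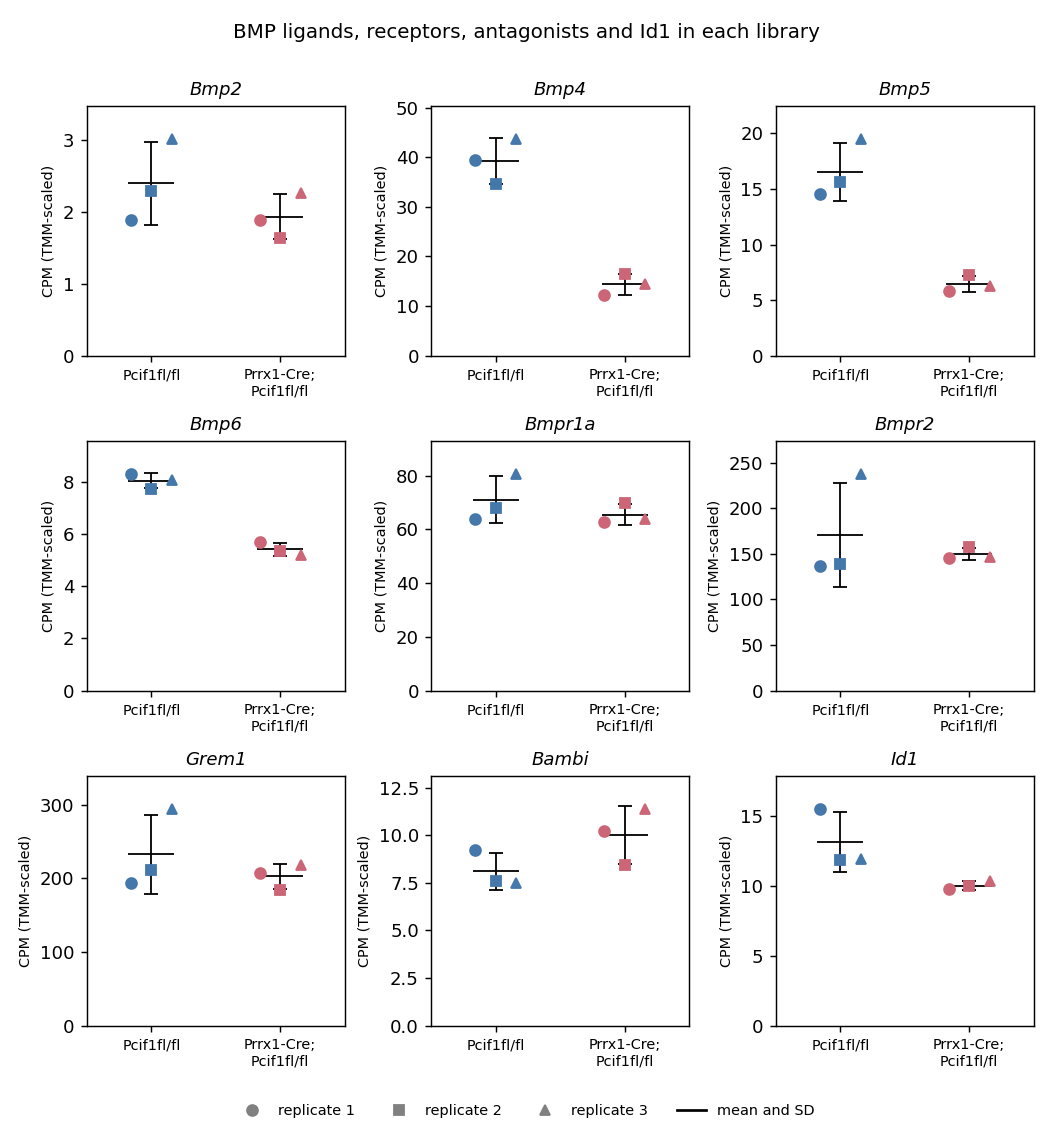
TMM-scaled CPM of the 9 genes in each library (y axis, starting at 0) by genotype (x axis), with the mean and SD of 3 libraries as a line and bars and the replicate number as the symbol. All Prrx1-Cre;Pcif1fl/fl points of Bmp4, Bmp5 and Bmp6 lie below the Pcif1fl/fl points, while Bmpr1a, Bmpr2 and Grem1 overlap and have their highest value in Pcif1fl/fl replicate 3.

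Bmp4 (ENSMUSG00000021835, chromosome 14, 46383520 to 46390669, minus strand, GRCm38) encodes a ligand with a wide part in mesoderm and skeletal development. It was at 39.5, 34.5 and 43.7 CPM in WT and at 12.2, 16.5 and 14.5 CPM in CKO MSCs. The lowest WT library was thus above the highest CKO library. The means were 39.2 ± 4.60 and 14.4 ± 2.14 CPM (SD, n = 3), which is 63.2% lower, and the log2 fold change was -1.44 with an SE of 0.15 (adjusted p = 0.000764, 95% interval -1.78 to -1.11). An antisense gene, Gm15217, covers 3.96% of its exonic bases and did not exceed 0.306 CPM.

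Bmp5 (ENSMUSG00000032179, chromosome 9, 75775364 to 75900310, plus strand) encodes a ligand best known from the short ear mouse, whose skeletal elements are reduced. Its CPM were 14.5, 15.6 and 19.5 in WT and 5.81, 7.27 and 6.30 in CKO MSCs. The groups did not overlap, and the mean fell from 16.5 ± 2.63 to 6.46 ± 0.743 CPM (SD, n = 3). The log2 fold change was -1.36, SE 0.16 (adjusted p = 0.00186, 95% interval -1.73 to -0.98), close to that of Bmp4. The antisense gene Gm26903 overlaps 46.7% of the exonic bases of Bmp5 and was not analysed here; whether the authors' counting used strand is not given in the sources used here.

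Bmp6 (ENSMUSG00000039004, chromosome 13, 38345107 to 38500302, plus strand), a close relative of Bmp5 that also induces hepcidin in the liver, changed less. The 3 WT libraries gave 8.30, 7.72 and 8.07 CPM and the 3 CKO libraries 5.67, 5.33 and 5.20 CPM. The libraries lay close together within a genotype and the genotypes did not overlap. The mean was 32.8% lower, with a log2 fold change of -0.57, SE 0.14 (adjusted p = 0.0404, 95% interval -0.88 to -0.26). Among the alternatives that ended this call were the fits without WT replicate 1 or 2 (adjusted p = 0.0968 and 0.099), without CKO replicate 1, 2 or 3 (adjusted p = 0.144, 0.139 and 0.181) and with no filter on low counts (adjusted p = 0.055), each time at a log2 fold change between -0.60 and -0.54. The antisense gene Txndc5, at 268 to 340 CPM far above Bmp6, covers 5.74% of its exonic bases and had a log2 fold change of -0.00 (adjusted p = 0.991).

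Bmp2 (ENSMUSG00000027358, chromosome 2, 133552159 to 133562885, plus strand), a potent inducer of osteoblast differentiation, was the lowest of the 4 ligands, with 43, 62 and 84 counts in WT and 42, 33 and 47 in CKO MSCs. In CPM these were 1.88, 2.28 and 3.01 against 1.89, 1.64 and 2.26. The groups overlapped, and the log2 fold change of -0.31 (SE 0.25, adjusted p = 0.538) had a 95% interval of -0.89 to 0.27. A fall or a rise of that size could not be told from the spread between libraries at this depth.

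Neither receptor passed the test. Bmpr1a (ENSMUSG00000021796, chromosome 14, 34410734 to 34503341, minus strand), a type I receptor for BMP2 and BMP4, was at 64.0, 68.1 and 80.7 CPM in WT and 62.6, 69.8 and 63.7 CPM in CKO MSCs. Its log2 fold change was -0.12, SE 0.11 (adjusted p = 0.594, 95% interval -0.38 to 0.14). Bmpr2 (ENSMUSG00000067336, chromosome 1, 59763400 to 59879014, plus strand), the type II receptor of BMPs, was at 137, 139 and 238 CPM in WT and 146, 158 and 147 CPM in CKO MSCs. A single library, WT replicate 3, held the high value of each receptor. For Bmpr2 it set the sign of the log2 fold change, which was -0.19 (SE 0.20, adjusted p = 0.635) with this library and 0.12 (SE 0.07, adjusted p = 0.216) without it.

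The inhibitors among the 9 genes did not pass either. Grem1 (ENSMUSG00000074934, chromosome 2, 113746164 to 113758646, minus strand) encodes gremlin, a secreted protein that binds BMP2 and BMP4. It was at 194, 212 and 295 CPM in WT and 207, 184 and 218 CPM in CKO MSCs, again highest in WT replicate 3. The log2 fold change was -0.20 (SE 0.16, adjusted p = 0.519) and came to 0.00 (SE 0.08, adjusted p = 0.988) without that library. Bambi (ENSMUSG00000024232, plus strand, 3507923 to 3516404 of chromosome 18) encodes a receptor-like protein without a kinase domain that blunts BMP and TGF-β signals. It was at 9.22, 7.61 and 7.49 CPM in WT and 10.2, 8.41 and 11.4 CPM in CKO MSCs. It was the single gene of the 9 with a positive log2 fold change, 0.31 (SE 0.16, adjusted p = 0.337, 95% interval -0.07 to 0.68), and its groups overlapped.

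Id1 (ENSMUSG00000042745, chromosome 2, 152736251 to 152737410, plus strand), an inhibitor of basic helix-loop-helix factors and an immediate target of BMP-activated SMADs, gave 15.5, 11.8 and 11.9 CPM in WT and 9.77, 9.95 and 10.3 CPM in CKO MSCs. Every CKO library was below every WT library, by a narrow margin. The log2 fold change was -0.38, SE 0.15 (unadjusted p = 0.0328, adjusted p = 0.185). Without WT replicate 3 it was -0.44 with an adjusted p of 0.0305, and without WT replicate 1, the highest library, it was -0.24 with an adjusted p of 0.331. Bmp4, Bmp5, Bmp6 and Id1 were the 4 of the 9 genes whose libraries did not overlap with CKO lower, and 0 did not overlap in the other direction, against 15.7% and 15.0% of all genes tested.

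**Figure D2:**
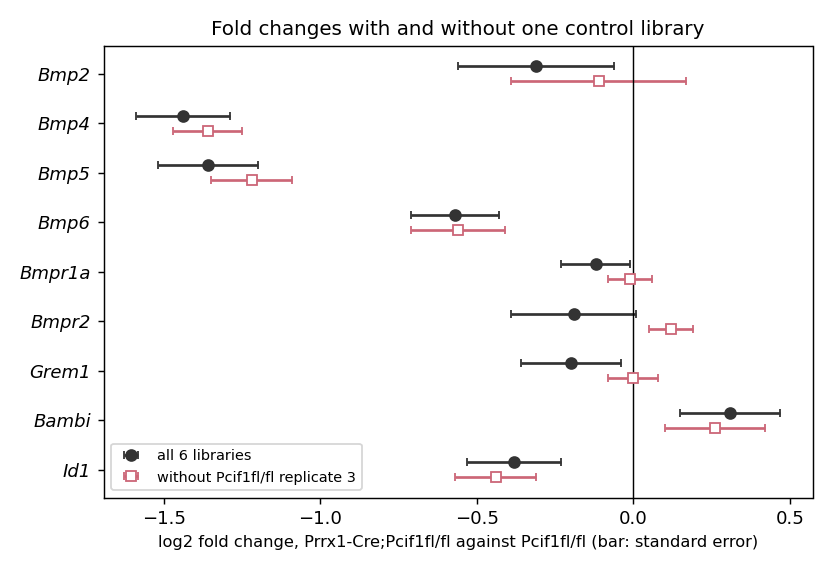
Log2 fold change of Prrx1-Cre;Pcif1fl/fl against Pcif1fl/fl MSCs (x axis) for the 9 genes, with SE as bars, from all 6 libraries (filled circles) and without Pcif1fl/fl replicate 3 (open squares). Bmp4, Bmp5 and Bmp6 lie at -1.44, -1.36 and -0.57 with all libraries and at -1.36, -1.22 and -0.56 without it, whereas Bmpr2 crosses 0.

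Levels can be set against each other between genes only per length of the merged exons. In WT MSCs Grem1 led with 56.3 ± 13.0 CPM per kb (SD, n = 3), followed by Bmp4 with 17.5 ± 2.05 CPM per kb. Id1, Bmpr1a and Bmpr2 came next at 11.3 ± 1.83, 11.2 ± 1.37 and 9.53 ± 3.18 CPM per kb and overlapped with each other. Below them stood Bmp5 with 4.11 ± 0.653, Bmp6 with 2.06 ± 0.075, Bambi with 1.60 ± 0.190 and Bmp2 with 0.672 ± 0.162 CPM per kb, which did not overlap.

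In CKO MSCs Grem1 was again the highest at 48.9 ± 4.18 CPM per kb (SD, n = 3), but Bmp4, at 6.42 ± 0.953 CPM per kb, stood below Bmpr1a (10.3 ± 0.613), Id1 (8.64 ± 0.253) and Bmpr2 (8.35 ± 0.364). Id1 and Bmpr2 overlapped. Bambi at 1.97 ± 0.297 and Bmp5 at 1.60 ± 0.184 CPM per kb overlapped too, as did Bmp5 and Bmp6 (1.38 ± 0.0631), and Bmp2 was again the lowest at 0.543 ± 0.0876 CPM per kb.

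The share of ligand transcripts, taken as CPM per kb over 13 BMP and GDF genes, was lower for Bmp4 and higher for Gdf6 in CKO MSCs. Bmp4 made up 37.9%, 37.2% and 41.6% of the sum in WT and 15.6%, 20.2% and 17.8% in CKO MSCs. Gdf6, whose product is a BMP family ligand needed for joint formation, made up 37.1%, 37.3% and 29.1% against 56.8%, 56.4% and 56.4%. Neither pair of groups overlapped. Among the smaller shares, that of Bmp5 was lower (7.77%, 9.4% and 10.4% in WT against 4.14%, 4.96% and 4.3% in CKO MSCs). That of Gdf7 was higher (1.72%, 1.56% and 0.485% against 5%, 3.75% and 5.02%), and both were without overlap. The sum itself was 46.4, 41.3 and 46.7 CPM per kb in WT and 34.8, 36.4 and 36.4 CPM per kb in CKO MSCs, also without overlap. These shares were not tested, since a share falls where another rises.

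**Figure D3:**
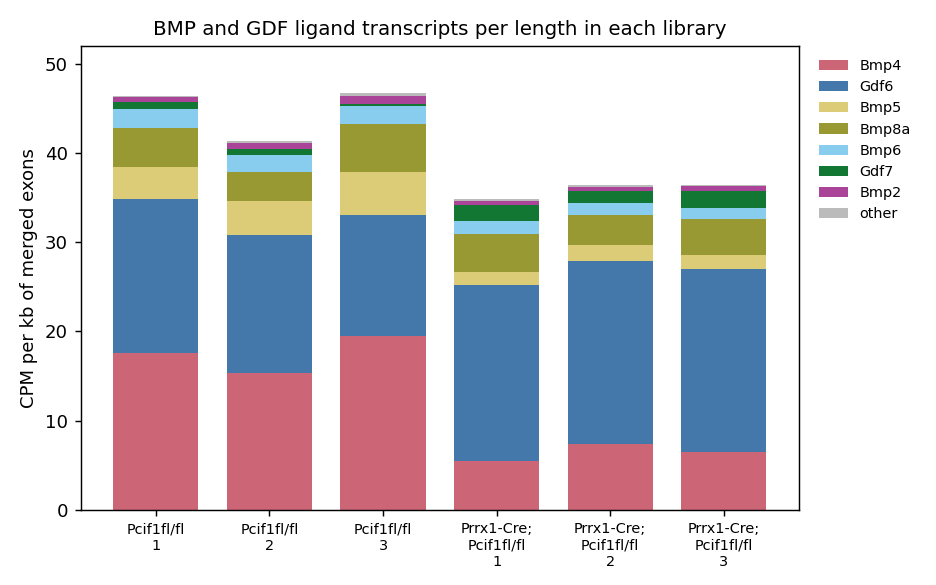
Stacked CPM per kb of merged exons (y axis, starting at 0) of BMP and GDF ligand genes in each of the 6 libraries (x axis). The Bmp4 segment is smaller in every Prrx1-Cre;Pcif1fl/fl library, where Gdf6 makes up 56.4% to 56.8% of the sum, while in Pcif1fl/fl replicate 2 Bmp4 and Gdf6 are about equal at 37.2% and 37.3%.

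Ratios within a library do not depend on its scaling, and 4 were compared, chosen after the values had been seen. The log2 ratio of Bmp4 to Bmp2 CPM was 4.06 ± 0.29 in WT and 2.90 ± 0.37 in CKO MSCs (SD, n = 3), and that of Bmp4 to Bmp6 was 2.28 ± 0.14 and 1.41 ± 0.27. The distance of Bmp4 from either ligand was thus smaller in the CKO libraries. The log2 ratio of Bmp4 to its antagonist Grem1 went from -2.56 ± 0.24 to -3.82 ± 0.31. None of these groups overlapped. The two-sided exact permutation p was 0.1 for each, also adjusted over the 4 ratios, which is the smallest that 3 against 3 libraries allow, so none could pass.

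The rest of the pathway was read from a list of 51 further genes, of which 46 were in the count table and 38 were tested. In CKO MSCs 9 of the 38 were down-regulated, 0 were up-regulated and 29 did not pass (edgeR's quasi-likelihood test, adjusted p under 0.05), where 4.51% of all genes tested were down-regulated and 2.88% up-regulated. Without regard to the adjustment, 13 were lower and 3 higher at p under 0.05, beside the 11.8% and 9.56% of all genes tested. DESeq2, run without the filter on low counts, called 10 lower and 2 higher, Gdf6 and Gdf7, beside 830 lower and 593 higher of 20070 genes. For limma-voom these were 6 lower and 1 higher, Gdf7, beside 577 lower and 391 higher of 13733 genes. Without WT replicate 3, 12 of 39 tested were lower, among them Smad9 (log2 fold change -0.73 and adjusted p = 0.0542 with this library, -0.75 and 0.0137 without it), and 2 were higher, Gdf6 and Gdf7 (1.58 and 0.0527 with it, 1.20 and 0.0119 without it), while the shares of all genes were then 10.4% lower and 11.1% higher. The median log2 fold change of the 38 was -0.16. This list was also chosen with earlier results of these data known, so its counts beside all genes are a description and no test. By role, 0 of 4 ligands, 0 of 6 receptors, 4 of 13 antagonists, 1 of 4 transducers, 1 of 4 intracellular inhibitors and 3 of 7 targets were down-regulated. Bmp8b, Bmp10, Bmp15, Gdf5, Gdf10, Bmpr1b, Sostdc1 and Vwc2 had 0 to 17 counts per library and were under the filter. Of these, the type I receptor Bmpr1b had 1, 8 and 2 counts in WT and 15, 17 and 9 in CKO libraries, without overlap, and was called higher in the fit without WT replicate 2, where it passed the filter. Bmp7, Gdf2, Hjv, Chrdl2 and Sost were not analysed here.

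**Figure D4:**
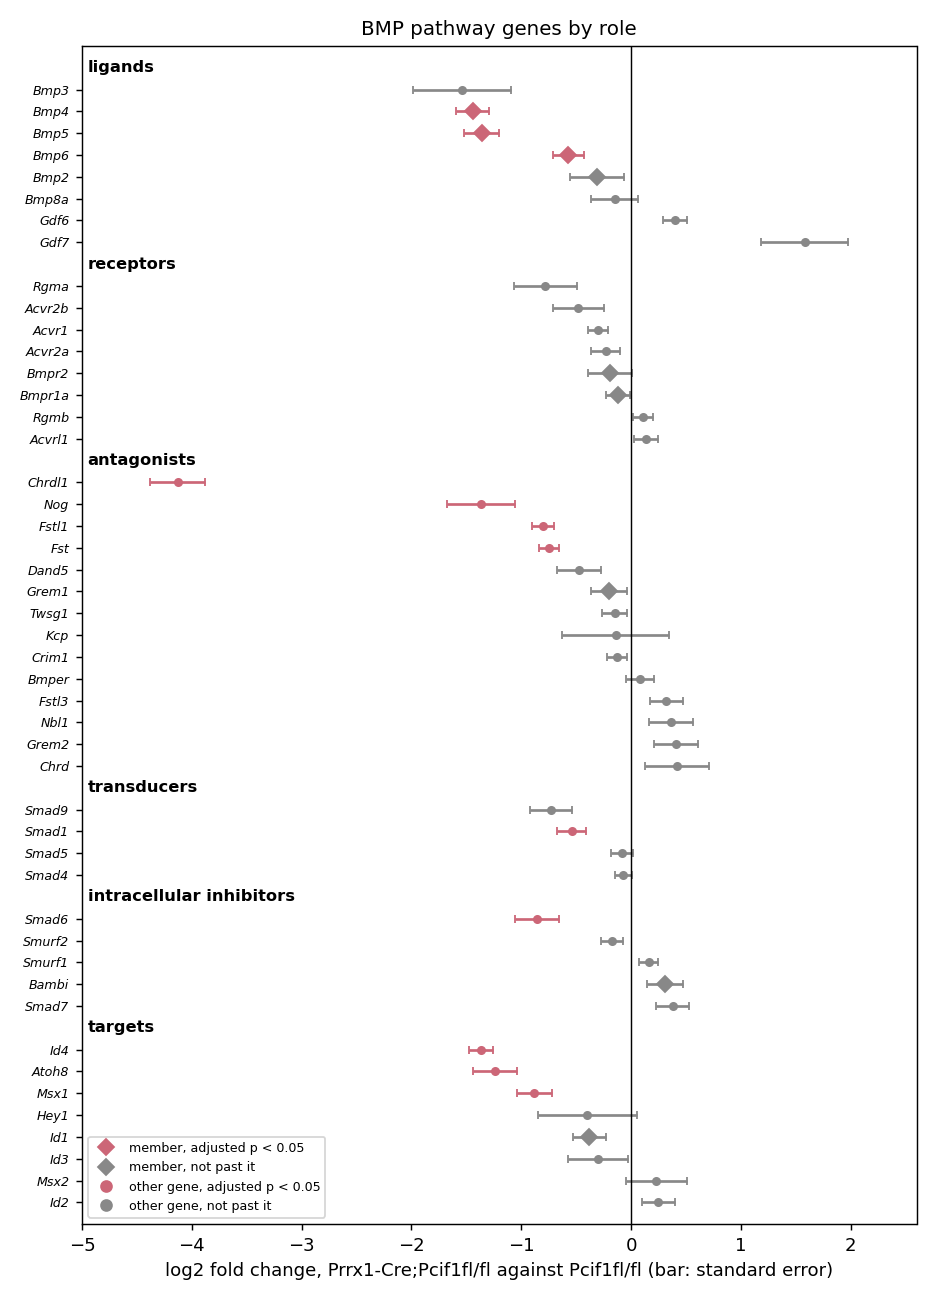
Log2 fold change of Prrx1-Cre;Pcif1fl/fl against Pcif1fl/fl MSCs (x axis, SE as bars) for the 47 BMP pathway genes tested, ordered by role, with diamonds for the 9 genes followed here and circles for the others. The 12 genes with an adjusted p under 0.05 are in red and all lie below 0, with Chrdl1 the farthest at -4.13.

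Among the other ligands, Gdf6 was at 60.8, 54.4 and 48.0 CPM in WT and 69.8, 72.5 and 72.5 CPM in CKO MSCs. It was above in all 3 libraries and just missed the threshold with a log2 fold change of 0.40, SE 0.11 (adjusted p = 0.0638). Gdf6 passed it without WT replicate 1 (adjusted p = 0.0397) or replicate 3 (adjusted p = 0.00528). It did not pass without WT replicate 2 (adjusted p = 0.16) or without CKO replicate 1, 2 or 3 (adjusted p = 0.195, 0.209 and 0.228). Bmp8a had a log2 fold change of -0.15 (adjusted p = 0.715) that turned to 0.05 without WT replicate 3. Of the other receptors, the type I receptor Acvr1 was at 56.7, 54.4 and 57.0 against 46.5, 46.3 and 43.6 CPM. The groups of Acvr1 did not overlap, but its log2 fold change of -0.30 (SE 0.09) passed the threshold with WT replicate 3 left out (adjusted p = 0.011) and not with it (adjusted p = 0.0843). The co-receptor gene Rgmb had a log2 fold change of 0.11 (adjusted p = 0.519).

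The antagonist Chrdl1, which encodes the chordin-like protein ventroptin and lies on chromosome X, had the largest fold change of the 47 pathway genes tested. It was at 8.52, 8.09 and 11.2 CPM in WT and at 0.495, 0.647 and 0.433 CPM in CKO MSCs, where it had 11, 13 and 9 counts. The mean was 17.6 times higher in WT MSCs, and the log2 fold change was -4.13, SE 0.25 (adjusted p = 9.58e-05). Nog, the gene of noggin, was low throughout, at 2.84, 3.20 and 1.65 against 0.945, 1.05 and 0.962 CPM. The groups did not overlap and the log2 fold change was -1.37, SE 0.31 (adjusted p = 0.0322), but the call was lost when any 1 library other than WT replicate 3 was left out (adjusted p up to 0.142) and with limma-voom (adjusted p = 0.0656).

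Fst encodes follistatin, which binds activins most tightly and some BMPs as well. It was at 155, 143 and 159 CPM in WT and 94.4, 92.2 and 85.6 CPM in CKO MSCs, a log2 fold change of -0.75, SE 0.09 (adjusted p = 0.00174). Its relative Fstl1, a secreted glycoprotein, had the highest level of these antagonists, at 233 ± 20.2 CPM per kb (SD, n = 3) in WT and 133 ± 6.24 CPM per kb in CKO MSCs. In CPM Fstl1 was at 1253, 1121 and 1060 against 684, 660 and 623, with a log2 fold change of -0.80, SE 0.10 (adjusted p = 0.0019). The genotypes did not overlap for either gene. The further antagonists Twsg1 and Nbl1 had log2 fold changes of -0.15 (adjusted p = 0.477) and 0.36 (adjusted p = 0.339), the latter 0.62 (adjusted p = 0.0494) without WT replicate 1 and 0.18 (adjusted p = 0.25) without WT replicate 3.

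Inside the cell, Smad1, which carries the signal to the nucleus, was at 31.1, 29.5 and 38.9 CPM in WT and 24.1, 22.1 and 22.4 CPM in CKO MSCs. The log2 fold change was -0.54, SE 0.13 (adjusted p = 0.0444). Smad6, an inhibitory SMAD, was at 19.4, 16.4 and 11.4 against 8.64, 8.61 and 8.66 CPM, with a log2 fold change of -0.86, SE 0.20 (adjusted p = 0.0347). Neither gene overlapped between the genotypes, but both calls were lost when any 1 library other than WT replicate 3 was left out (adjusted p up to 0.18 for Smad1 and 0.146 for Smad6) and with limma-voom (adjusted p = 0.0557 and 0.0597). Smad5 and Smad4 had log2 fold changes of -0.08 (adjusted p = 0.701) and -0.07 (adjusted p = 0.647). The ubiquitin ligase genes Smurf2 and Smurf1 stood at -0.17 (adjusted p = 0.386) and 0.16 (adjusted p = 0.355).

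Of the 7 other target genes tested, 3 were down-regulated. Id4 was at 39.6, 33.1 and 37.9 CPM in WT and 14.3, 14.9 and 13.6 CPM in CKO MSCs, with a log2 fold change of -1.37, SE 0.11 (adjusted p = 0.000304). Atoh8, a basic helix-loop-helix factor, was at 17.6, 16.2 and 26.3 against 8.24, 7.91 and 9.33 CPM, a log2 fold change of -1.24, SE 0.20 (adjusted p = 0.00737, and 0.0503 without CKO replicate 2). Msx1, a homeobox gene of limb and craniofacial development, was at 7.38, 6.14 and 6.31 against 3.92, 3.33 and 3.46 CPM, a log2 fold change of -0.88, SE 0.16 (adjusted p = 0.0139, and up to 0.0798 without 1 of the CKO libraries, each of which ended the call). These 3 targets were lower in every CKO library.

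Id2 and Id3, which belong to the Id family with Id1, did not pass the test. Id2 had a log2 fold change of 0.25 (adjusted p = 0.377). Id3 was at 197, 168 and 80.7 CPM in WT and 122, 118 and 122 CPM in CKO MSCs, so that WT replicate 3 lay below and its other libraries above the CKO libraries. The log2 fold change of Id3 was -0.30 (adjusted p = 0.580) with this library and -0.59 (adjusted p = 2.47e-05) without it, and came to -0.04 (adjusted p = 0.934) without WT replicate 1. Within libraries the log2 ratio of Id4 to Id1 was 1.51 ± 0.16 in WT and 0.51 ± 0.10 in CKO MSCs (SD, n = 3), without overlap (two-sided exact permutation p = 0.1).

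**Figure D5:**
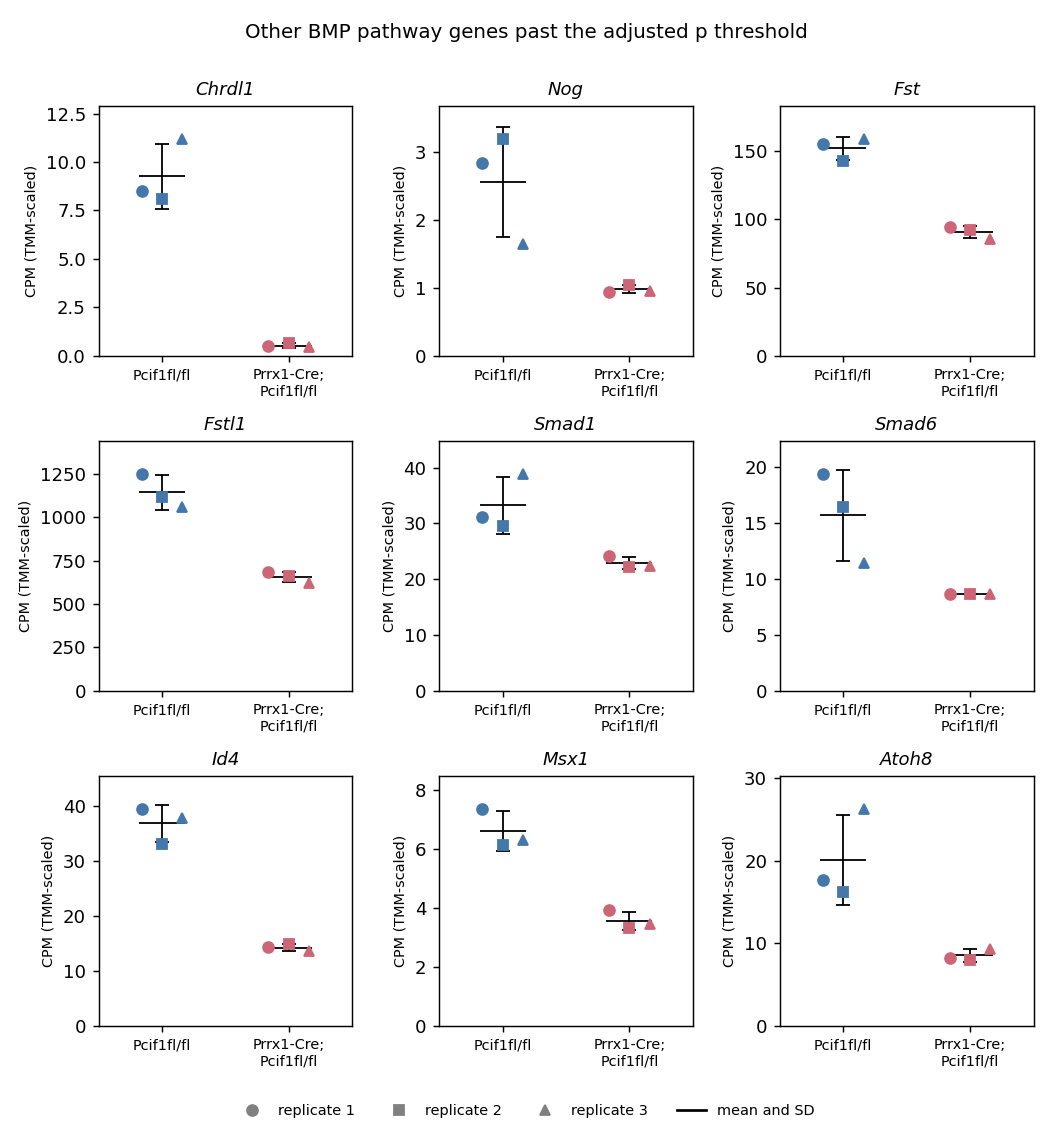
TMM-scaled CPM (y axis, starting at 0) of the 9 other BMP pathway genes with an adjusted p under 0.05 in each library, by genotype (x axis), with the mean and SD of 3 libraries. Prrx1-Cre;Pcif1fl/fl libraries lie below Pcif1fl/fl libraries in all 9 panels. Pcif1fl/fl replicate 3 is the lowest control for Nog, Fstl1 and Smad6 and the highest for Chrdl1, Fst, Smad1 and Atoh8.

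Markers of cell types moved along with these genes in part. The 9 mesenchymal markers summed to 3705 to 4218 CPM in WT and 1404 to 1539 CPM in CKO MSCs, with 4 down-regulated, among them Cxcl12 and Lepr, and 2 up-regulated. The lower sum was that of Cxcl12, at 3335, 2895 and 2922 against 607, 583 and 498 CPM, since the other 8 markers summed to 810 to 907 CPM in WT and 906 to 933 CPM in CKO MSCs. Prrx1 itself, the gene whose promoter drives Cre, was at 213, 211 and 283 against 276, 281 and 283 CPM, with a log2 fold change of 0.25 (adjusted p = 0.303) that was 0.40 (adjusted p = 0.000173) without WT replicate 3. Of 7 adipocyte markers 5 were down-regulated, among them Adipoq (47.0 against 0.824 CPM on average) and Plin1, which had 0 counts in every CKO library. The sum of the list, 476 to 573 against 426 to 614 CPM, did not separate the genotypes. Most of that sum was Lpl, which did not pass, at 316, 335 and 420 CPM in WT and 499, 329 and 428 CPM in CKO MSCs. Of the 7 osteoblast markers tested, Sp7, Alpl and Ibsp were down-regulated and Col1a1 was up-regulated, and the list summed to 14583 to 20715 against 17888 to 26651 CPM.

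With all 6 libraries none of the 12 macrophage or 7 endothelial markers passed the test, and the endothelial list summed to 31.9 to 44.7 against 29.5 to 34.7 CPM. Smooth muscle markers (497 to 664 against 536 to 562 CPM, 1 of 6 down-regulated) and chondrocyte markers (41.4 to 53.6 against 33.6 to 40.2 CPM, 2 of 4 down-regulated) were low to moderate. The chondrocyte sum was lower in every CKO library than in every WT library. Neutrophil markers summed to no more than 1.98 CPM in any library, with 1 of the 2 tested up-regulated.

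More markers passed without WT replicate 3, in a fit where 10.4% of all genes tested were lower and 11.1% higher. Of the macrophage markers, Csf1r was then lower (log2 fold change -0.30, adjusted p = 0.00157) and Cd14 (0.52, adjusted p = 0.00771), Itgam (0.52, adjusted p = 0.00115) and Ptprc (0.31, adjusted p = 0.0119) were higher. Of the endothelial markers, Cdh5 was lower (-0.46, adjusted p = 0.0201) and Vwf higher (0.60, adjusted p = 0.0224). The osteoblast marker Spp1 was higher (0.66, adjusted p = 0.011). All 9 mesenchymal markers passed, 5 lower and 4 higher, and all 7 adipocyte markers, 5 lower and 2 higher, while 2 of 6 smooth muscle markers were lower, and 2 of 4 chondrocyte markers were lower and 1 higher. The part of these markers in the lower levels of Bmp4, Bmp5 and Bmp6 was not tested, and in bulk RNA fewer cells of a type cannot be told apart from less RNA per cell.

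The genes most like the 3 down-regulated ligands across the 6 libraries were found by the root mean square difference of mean-centred log2 CPM, over 9242 genes with a mean of at least 10 CPM. The closest to Bmp4 were Sema6d at 0.081, Gpm6b at 0.11 and Bmp5 at 0.12. For Bmp5 they were Sema6d at 0.067, Bmp4 at 0.12 and Gpm6b at 0.12, so Sema6d and Gpm6b stood on both lists. Bmp6 had other neighbours, namely Nfkbie at 0.038, Gsta4 at 0.042 and Tmem98 at 0.046.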

How the data were processed

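Libraries were grouped by the sample labels into WT (Pcif1fl/fl) and CKO (Prrx1-Cre;Pcif1fl/fl), 3 each. The deposited values are raw read counts per gene, for which the authors aligned paired-end reads of 150 bases to mm10 with HISAT2. The counting tool, annotation and use of strand are not given in the sources used here. The deposited design text speaks of duplicates, whereas the labels give 3 libraries per genotype. Of 20163 rows, 92 repeated an Ensembl ID with the same counts, which left 20071 genes.

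Genes were filtered with filterByExpr, scaled by TMM and tested with edgeR 4.0.16 (glmQLFit and glmQLFTest, no covariate) in R 4.3.3, with Benjamini-Hochberg adjustment over the 13733 genes tested. SE was obtained by dividing the log2 fold change by the root of the F statistic. CPM are TMM-scaled. Positions, exonic overlaps and lengths are from GENCODE M21 (GRCm38), which held 20059 of the IDs, and start windows from RefSeq tables (GRCm38.p6), where 6 of the 9 genes matched. Intervals hold the spread between libraries and counting error, and do not account for PCR duplicates.

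The 9 genes, the pathway list and the marker lists were chosen with earlier results of these data known. Named were the 9 genes, every other pathway gene with an adjusted p under 0.05, the 2 per role with the highest CPM among the rest, Pcif1, Xist and 4 Y-linked genes, and the 3 genes most like each down-regulated member. Genes named outside this rule, such as Gdf7 and the markers, were chosen after their values were seen. Alternatives were RLE and total-count scaling, DESeq2 1.42.0, limma-voom (limma 3.58.1), no filter, a mean of at least 10 counts, a fold change limit, the replicate number as a block, and each library left out.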

Additional observations from a re-analysis of the deposited data

How the results depend on the processing

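Of 390 log2 fold changes of 30 named pathway genes under the alternatives, 350 kept their direction and their side of the threshold, 30 were no longer past it, 7 passed it newly and 3 changed sign. Bmp4 (-1.55 to -1.33, adjusted p 1.79e-15 to 0.00782) and Bmp5 (-1.45 to -1.22, adjusted p 2.48e-10 to 0.0167) passed it under every alternative run. The sign changes all came without WT replicate 3: over the libraries left out, Bmpr2 ran from -0.32 to 0.12, Grem1 from -0.32 to 0.00 and Bmp8a from -0.34 to 0.05. The number of the 9 genes down-regulated ran from 2 to 4 with a library left out (4 without WT replicate 3, with Id1 added, and 2 without any other), and was 2 with no filter and 3 with the other scalings, DESeq2 and limma-voom. Of the other pathway genes, 4 to 12 were down-regulated with a library left out (12 without WT replicate 3; 5, 4 and 5 without CKO replicate 1, 2 and 3), 4 passed when a log2 fold change of 1 or more in size was also required, and up-regulated were 0 to 2 with a library left out, 2 with DESeq2, 1 with limma-voom and 1 with no filter. Over all genes, 620 down-regulated and 396 up-regulated became 1447 and 1544 without WT replicate 3, and 324 and 148 without CKO replicate 1. The cause was not tested.

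The labels do not say whether same-numbered libraries were paired. Their deviations from the group means correlated at 0.0554, -0.045 and -0.013 across genes. With 3 libraries per group, such low values cannot exclude a pairing. With the replicate block, 2 of the 9 genes (Bmp6 no longer, at -0.57 and an adjusted p of 0.104) and 8 of the other pathway genes (Smad1 no longer, at an adjusted p of 0.0798) were down-regulated and 0 up-regulated. Bmp2 had 33 to 84 counts per library, and the part of depth in its wide interval was not tested.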
